A study of Mus musculus with 21 samples.

Results

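Cytosolic ribosomal proteins are the protein part of the ribosomes that work outside mitochondria: with ribosomal RNA they build a small subunit, which reads the mRNA, and a large subunit, which joins amino acids into protein. Their mRNAs start with a run of pyrimidines at the 5′ end, the TOP motif, through which the kinase mTOR raises or lowers the translation of the whole family together. In the hypothalamus mTOR signalling is known as a sensor of nutrients and of leptin. The genes described here are those in the deposited count table with a symbol made of Rpl or Rps and a number, with or without a letter suffix, together with *rplp0*, *rplp1*, *rplp2* and *rpsa*. Rps6k kinases and pseudogenes were left out. Of the 21654 genes listed there, 82 matched, and 80 of these averaged at least 50 reads over the 21 libraries, the minimum that 12768 genes in all passed. The 80 genes comprise 48 of the large and 32 of the small subunit. Below the minimum were *rpl39l* with a mean of 0.762 reads and *rpl3l* with 2.57.

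The RNA came from frozen punches of the circumventricular hypothalamus (CVH), also called ventral hypothalamus. The mice were male C57BL/6J and were 12 to 14 weeks old on arrival. Regular chow (RC) or a high-fat diet (HFD) was either kept throughout, giving the groups RC NoDS and HFD NoDS (no diet switch), or replaced by the other diet for a short time, giving RC → HFD and HFD → RC. Before collection in the light phase at ZT6, the 6 h mark after lights on, every mouse was kept awake for 3 h. Each library holds polyA RNA of 2 mice pooled equally, read as 100 bp single-end reads, with 5 libraries of RC NoDS, 6 of RC → HFD, 5 of HFD → RC and 5 of HFD NoDS. A library is thus a pool, the spread between individual mice was not measured, and every p-value below speaks of differences between pools.

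The counts of a library summed to between 16380781 and 16390598 reads, since the authors had re-sampled all libraries to a common depth. Reads of the 80 ribosomal protein genes made up 2.18% ± 0.13 of the counts in RC NoDS (SD, n = 5). The mean was 1.98% ± 0.0509 for RC → HFD (n = 6), 2.07% ± 0.124 for HFD → RC (n = 5) and 2.12% ± 0.107 for HFD NoDS (n = 5). In the RC NoDS libraries the share was 2.3, 2.05, 2.05, 2.19 and 2.32%. In RC → HFD it ran from 1.89% to 2.03% with a median of 1.99%. All 6 RC → HFD libraries lay below all 5 RC NoDS libraries, while each of the other pairs of groups overlapped. The HFD → RC libraries held 2.1, 2.21, 1.91, 1.97 and 2.15%, and the HFD NoDS libraries held 1.99, 2.14, 2.05, 2.26 and 2.16%. HFD → RC replicate 15, at 1.91%, was the only library outside RC → HFD below 1.97%. The depth makes the counting error of these shares small: the 95% Wilson interval was 2.292% to 2.306% for RC NoDS replicate 1 and 1.88% to 1.893% for RC → HFD replicate 8, the library with the lowest share. Such intervals cover counting error only. No p is given for this sum, because the genes were picked with results of these data known.

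**Figure D1:**
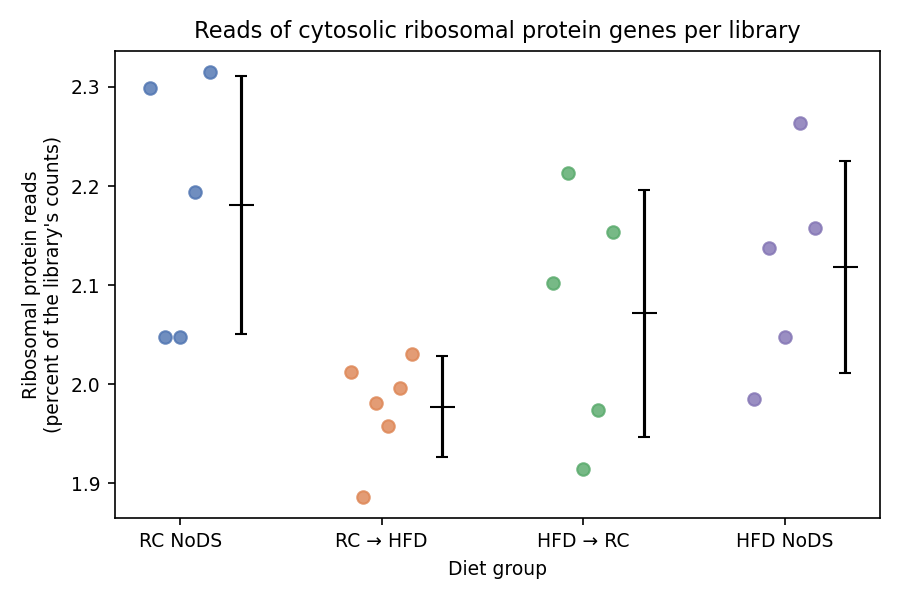
Reads of the 80 cytosolic ribosomal protein genes as a percent of all counts, 1 point per library, by diet group, with the mean and SD. The 6 RC → HFD libraries sit between 1.89% and 2.03%, below the 5 RC NoDS libraries at 2.05% to 2.32%; the other groups overlap.

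Both subunits showed the same order of groups. Large subunit genes took 1.27% ± 0.0728 of counts in RC NoDS, 1.16% ± 0.0303 in RC → HFD, 1.21% ± 0.075 in HFD → RC and 1.24% ± 0.0634 in HFD NoDS (SD). Small subunit genes took 0.91% ± 0.0577, 0.822% ± 0.0218, 0.86% ± 0.0505 and 0.877% ± 0.0442 in the same order. The ratio of large to small subunit reads stayed between 1.38 and 1.45 over the 21 libraries, so the subunits' reads moved by like amounts from library to library.

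The ribosomal protein genes were spread over 19 chromosomes, with 14 of the 80 on chromosome 7. Their mean counts ran from 295 reads per library for *rps27l* to 11953 for *rpl4*, with a median of 3769. The 5 with most reads were *rpl4*, *rpl13a*, *rpl3*, *rplp1* and *rpl8*, which together held 15.5% of the family's 341124 reads per library. Since longer mRNAs give more reads, levels of different genes are compared per kilobase of coding sequence. On that scale the median was 8105 reads per kilobase, against 409 over the 12522 tested genes with a coding length, and 72 of the 80 were among the 1000 highest genes. In the small subunit the median was 8715 and in the large subunit 7234. *rps29* stood highest with 44782 reads per kilobase, and *rplp1* followed with 26407, *rps21* with 22800, *rps27* with 20737 and *rpl13a* with 19358. The lowest were *rpl22l1* with 2534, *rpl10a* with 2495, *rpl36al* with 1779, *rpl7l1* with 1340 and *rps27l* with 1157. Most of the proteins occur in equal copy number in a ribosome, the stalk proteins apart. Highest and lowest mRNA differed by 38.7-fold on this scale, and 61 of the 80 lay within 2-fold of the median. The reads are of whole mRNAs, while the length is that of the coding sequence only. The scale can thus place genes with a short coding sequence too high. That of *rps29* has 171 bases, against a median of 457 in the family.

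**Figure D2:**
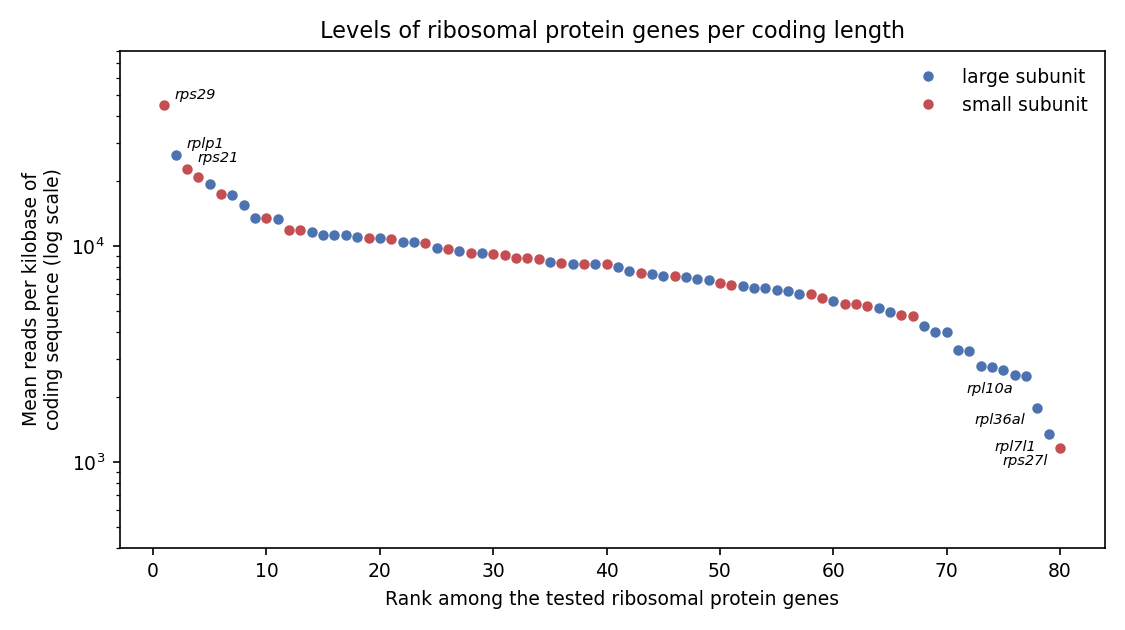
Mean reads per library per kilobase of coding sequence (log axis) of the 80 cytosolic ribosomal protein genes, in order of level, for the large and the small subunit. *rps29* stands highest at 44782 and *rps27l* lowest at 1157, with a median of 8105.

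Of the 5 lowest genes, 4 are paralogs whose symbols end in l, al or l1, and each lay below the family member it is named after. *rps27l* stood at 1157 reads per kilobase and *rps27* at 20737, *rpl36al* at 1779 and *rpl36a* at 6161, *rpl7l1* at 1340 and *rpl7* at 5178, and *rpl22l1* at 2534 and *rpl22* at 3984. Both genes under the minimum are paralogs as well: *rpl3l*, known from heart and skeletal muscle, had 3.56 reads per kilobase beside 9226 of *rpl3*, and *rpl39l*, known from testis, had 4.88 beside 7190 of *rpl39*. The highest count of *rpl3l* in any library was 16, in RC → HFD replicate 9, and that of *rpl39l* was 9, in HFD NoDS replicate 19. These counts are too few to compare diets. *rps4y2*, whose suffix lies outside the rule, had group means of 1110 in RC NoDS, 970 in RC → HFD, 1021 in HFD → RC and 1000 in HFD NoDS.

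Reads of a ribosomal protein gene can be hard to tell from those of its many processed pseudogenes. The table held 103 genes named as ribosomal protein pseudogenes, of which 2 averaged 50 reads or more, and together they had 482 reads per library, 0.141% of the family's reads. Pseudogenes under other names would not be in this count, so it does not measure all pseudogene reads. In the GENCODE M1 annotation 45 of the 80 genes were overlapped by another gene model, 32 of them on the same strand and 17 on the other strand. How reads that match several places were counted, and whether counting used the strand, is not given in the sources used here.

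Within diet groups the ribosomal protein genes varied little from library to library. Their within-group coefficient of variation had a median of 7.88%, against 14.9% over all genes tested. Genes of like mean count, between 2382 and 5415 reads, had a median of 8.3% (n = 1100), and 46 of the 80 ribosomal protein genes lay below that value, so genes of like count varied nearly as little. *rpl4* with 5.2% and *rpl3* with 5.23% varied least, and *rps28* with 17.1% and *rpl39* with 16% varied most. The counts of *rps28* were 1589, 1378, 1647, 2037 and 2226 in RC NoDS, ran from 1407 to 1884 with a median of 1643 in RC → HFD, and were 1941, 2263, 1545, 1327 and 1720 in HFD → RC and 1803, 2207, 1518, 1890 and 1532 in HFD NoDS. Each group held low and high libraries of *rps28*, and all groups overlapped.

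Within groups the members also moved together. Over the 3160 pairs of ribosomal protein genes, the correlation of log2 levels across the 21 libraries, with group means removed, had a median r of 0.36 and was above 0 for 82.1% of pairs. Pairs of a ribosomal protein gene with any other gene had a median r of 0.00 and were above 0 for 49.8%. Small subunit pairs had a median of 0.42, large subunit pairs 0.34 and mixed pairs 0.36. For comparison, the 2628 pairs among 73 nuclear genes of oxidative phosphorylation had a median of 0.21 and the 2701 pairs among 74 mitochondrial ribosomal protein genes 0.03. These pairs share the same 21 libraries and are a description of them. The lists were not matched to the family in mean count. Summed reads of the mitochondrial ribosomal protein genes still went with the family's share of counts, with r = 0.55, and 0.59 with group means removed. For the oxidative phosphorylation genes these values were 0.45 and 0.4. Not all members took part: *rpl13a* had r = 0.89 and *rps12* 0.88 with the summed log2 level of the other members, whereas *rps15a* had −0.33, *rpl39* −0.25 and *rpl7* −0.05. The median member had r = 0.64, and 9 of the 80 reached 0.8. Of the 12688 genes outside the family 2 reached 0.8, namely *ctsz*, which codes for the lysosomal protease cathepsin Z, with 0.84, and *hopx*, a homeodomain-only protein gene, with 0.81. Next came *tpt1*, *mbd2* and *ifi30* with 0.79 each, n = 21 in every case. Of these *tpt1* has an mRNA of the same TOP class as the ribosomal protein genes.

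RC NoDS against RC → HFD asks what a short time on high-fat diet did in mice kept on chow until then. Of the 80 ribosomal protein genes edgeR called 0 at an adjusted p under 0.15, the threshold used for all fits, beside 0.0392% of all genes tested, and the lowest adjusted p was 0.469. Before adjustment, at p under 0.05, there were 28 of 80, all lower in RC → HFD, beside 6.51% of all genes, with 29 by DESeq2 and 26 by limma-voom. limma-voom called 0 after adjustment. DESeq2 called 10, all lower in RC → HFD, beside 10.8% of the genes to which it gave an adjusted p. Its automatic filter on mean count had left 886 genes with an adjusted p, 37 ribosomal protein genes had none, and without that filter it called 0 of the 80, with a lowest adjusted p of 0.168. The DESeq2 calls included *rpl3*, *rpl10* and *rps27*, and the lowest adjusted p from DESeq2 was 0.0408, for *rpl3*. The median log2 fold change of the 80 genes was −0.121, with 77 below 0, beside a median of −0.001 over all genes tested, of which 49.8% were above 0. The values ranged from −0.37 for *rps27l* to 0.11 for *rpl28*. Large subunit genes had a median of −0.108 and small subunit genes −0.141. The differences were small and mostly alike, and no single gene passed edgeR's test. In bulk tissue, fewer cells of a type and less of an mRNA per cell cannot be told apart.

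Counts of 5 ribosomal protein genes did not overlap between RC NoDS and RC → HFD, all lower in RC → HFD, beside 1.17% of all genes tested: *rpl30*, *rpl3*, *rpl15* and, named after their values were seen, *rps25* and *rpl4*. *rpl30* (ENSMUSG00000058600, chr15:34370260-34373395, minus strand) codes for a large subunit protein at the face toward the small subunit. Its counts in RC NoDS were 2672, 2685, 2351, 2578 and 2437. In RC → HFD they ran from 2001 to 2269 with a median of 2125.5, all below the lowest RC NoDS library. HFD → RC held 2251, 2170, 1940, 2276 and 2051, also all below RC NoDS, and HFD NoDS held 2054, 2298, 2090, 2556 and 2394, which overlapped each other group. The edgeR log2 fold change was −0.24 ± 0.066 (SE) from RC NoDS to RC → HFD, lower in 6 of 6 libraries, with an adjusted p of 0.469.

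*rpl3* (ENSMUSG00000060036, chr15:79908211-79913836, minus strand) codes for a large protein that reaches toward the centre where peptide bonds form. RC NoDS libraries had 12996, 11830, 11524, 11912 and 11288 reads, and RC → HFD libraries ran from 9174 to 11088 with a median of 10564.5. The highest RC → HFD library, replicate 9, lay just below the lowest RC NoDS library, replicate 6. HFD → RC libraries had 10814, 11309, 10758, 11401 and 11225 reads and HFD NoDS libraries 10798, 10735, 11027, 12168 and 12671, so both overlapped RC NoDS and RC → HFD. The log2 fold change from RC NoDS to RC → HFD was −0.17 ± 0.0524 (SE), with an adjusted p of 0.578. *rpl15* (ENSMUSG00000012405, chr14:19100337-19103905, minus strand), a large subunit gene, had 2180, 1959, 1776, 1768 and 1781 reads in RC NoDS and from 1474 to 1688 with a median of 1645.5 in RC → HFD. Replicate 1 of RC NoDS was its highest library, and replicates 3, 5 and 6 of that group lay close above RC → HFD. Its counts were 1838, 1536, 1490, 1764 and 1777 in HFD → RC and 1799, 1601, 1484, 1685 and 1756 in HFD NoDS, and both groups overlapped RC NoDS and RC → HFD. Its log2 fold change was −0.21 ± 0.0744 (SE), with an adjusted p of 0.685.

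*rpl39* (ENSMUSG00000079641, chrX:34622515-34625397, minus strand) codes for a very short protein that lines the tunnel through which the new chain leaves. It had 1567, 1573, 1353, 1128 and 1098 reads in RC NoDS and from 801 to 1187 with a median of 1017 in RC → HFD. Replicates 1, 2 and 3 of RC NoDS were higher than every RC → HFD library, but replicates 5 and 6 were within their range. HFD → RC libraries held 1276, 910, 880, 1175 and 1067 reads and HFD NoDS libraries 966, 800, 1078, 1183 and 1384, with all groups overlapping. The log2 fold change was −0.37 ± 0.125 (SE) from RC NoDS to RC → HFD with an adjusted p of 0.673, and −0.31 ± 0.131 (SE) from RC NoDS to HFD → RC with an adjusted p of 0.531. With the share of zero counts in the model they were −0.24 and −0.09, so their size depended on that choice. Its SE was larger than that of *rpl30* and *rpl3*, as its spread between libraries was.

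RC NoDS against HFD → RC compares mice kept on chow with mice returned to chow from high-fat diet. edgeR called 0 of the 80 genes, beside 0.282% of all genes tested, with a lowest adjusted p of 0.247. Members at an unadjusted p under 0.05 numbered 4, all lower in HFD → RC, beside 8.1% of all genes, and 4 each by DESeq2 and limma-voom. limma-voom called 0, and DESeq2 called 1, *rpl30*, with an adjusted p of 0.118, beside 1.15% of genes. *rpl30* was also the 1 gene whose counts did not overlap, beside 1.32% of all genes. Its edgeR log2 fold change was −0.23 ± 0.069 (SE), lower in 5 of 5 libraries, with an adjusted p of 0.247; without HFD → RC replicate 16 it was −0.25 with an adjusted p of 0.145, past the threshold. The median over the 80 genes was −0.057, with 63 below 0. This median ran from −0.087 to −0.034 with 1 library left out and from −0.092 to −0.05 under other settings. *rpl10* (ENSMUSG00000008682, chrX:71516151-71518474, plus strand), whose protein joins the large subunit last, had 6486, 5886, 5436, 5965 and 5636 reads in RC NoDS and 5459, 5616, 4524, 5386 and 4370 in HFD → RC. Replicates 15 and 17 of HFD → RC were the low ones, and the other 3 lay within or just under the RC NoDS range. In RC → HFD its counts ran from 4558 to 5660 with a median of 4950, and in HFD NoDS they were 5163, 5177, 5318, 5787 and 5759. Its log2 fold change from RC NoDS to HFD → RC was −0.19 ± 0.0714 (SE), with an adjusted p of 0.449.

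RC → HFD against HFD NoDS compares a short with a long time on high-fat diet. edgeR called 0 of the 80, beside 0.0157% of all genes tested, with a lowest adjusted p of 0.51, and DESeq2 and limma-voom also called 0. At an unadjusted p under 0.05 there were 13, of which 12 were higher in HFD NoDS, beside 7.49% of all genes, with 14 by DESeq2 and 14 by limma-voom. Counts of 0 genes of the family did not overlap, beside 0.744% of all genes. The median log2 fold change was 0.091, with 75 of 80 above 0. This median ran from 0.062 to 0.113 with 1 library left out and from 0.054 to 0.099 under other settings. RC → HFD is also a group of the comparison with RC NoDS, so these values are not independent of those above. *rpl7a* (ENSMUSG00000062647, chr2:26766284-26768838, plus strand) is a large subunit gene that hosts small nucleolar RNAs in its introns. Its counts were 4970, 4408, 4576, 4825 and 5192 in RC NoDS, ran from 4247 to 4912 with a median of 4593 in RC → HFD, and were 4706, 4864, 4767, 4227 and 4810 in HFD → RC and 4900, 5507, 5004, 5595 and 4923 in HFD NoDS. HFD NoDS replicates 20 and 23 were the highest libraries of all, and all of HFD NoDS lay above all of HFD → RC. From RC → HFD to HFD NoDS its log2 fold change was 0.17 ± 0.0606 (SE), with an adjusted p of 0.528.

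RC NoDS against HFD NoDS sets the constant diets against each other. edgeR called 0 of the 80 genes, beside 0.0783% of all genes tested, with a lowest adjusted p of 0.64, and DESeq2 and limma-voom called 0 as well. Before adjustment, at p under 0.05, there were 10, 7 lower in HFD NoDS and 3 higher, beside 7.41% of all genes, with 11 by each of the other tools. Counts of 0 of the 80 did not overlap, beside 0.893% of all genes. The median log2 fold change was −0.024, with 27 of 80 above 0, but it was 0.008 without RC NoDS replicate 6, so its sign rests on that library. The extremes were *rpl22l1* and *rpl38*.

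*rpl38* (ENSMUSG00000057322, chr11:114529838-114533645, plus strand) is known for its part in the translation of Hox mRNAs in the embryo. Its counts in RC NoDS were 1961, 1933, 2025, 2199 and 2411, and in HFD NoDS they were 2416, 2682, 2588, 2401 and 2302. Only RC NoDS replicate 6 reached the range of HFD NoDS. RC → HFD ran from 1629 to 2518 with a median of 2041.5, and HFD → RC held 2253, 2448, 2055, 2083 and 2541, with all groups overlapping. From RC NoDS to HFD NoDS the log2 fold change was 0.25 ± 0.0938 (SE) with an adjusted p of 0.64, and from RC → HFD to HFD NoDS it was 0.26 ± 0.0896 (SE) with an adjusted p of 0.513. *rpl22l1* (ENSMUSG00000039221, chr3:28704358-28706274, plus strand), the paralog of *rpl22*, had 1275, 1023, 956, 842 and 1030 reads in RC NoDS and 762, 589, 957, 869 and 943 in HFD NoDS. HFD NoDS replicate 20, at 589, was its lowest library of all and RC NoDS replicate 1, at 1275, its highest. In RC → HFD it ran from 893 to 1081 with a median of 950, and in HFD → RC it had 806, 1048, 849, 1030 and 829. Its log2 fold change from RC NoDS to HFD NoDS was −0.30 ± 0.118 (SE), with an adjusted p of 0.657, while that of *rpl22* was 0.03 ± 0.0908 (SE), with an adjusted p of 0.947. With the share of zero counts in the model the values from RC NoDS to HFD NoDS were 0.16 for *rpl38* and −0.19 for *rpl22l1*, and −0.20 for *rpl22l1* without HFD NoDS replicate 20.

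*rpl35a* (ENSMUSG00000060636, chr16:33056539-33060275, plus strand) codes for a large subunit protein. Its counts in RC NoDS were 2786, 2733, 2696, 2168 and 2647, and in HFD NoDS they were 2185, 2151, 1983, 2378 and 2600. Replicate 5 of RC NoDS fell among the HFD NoDS libraries, and the other 4 were above all of them. RC → HFD ran from 1988 to 2369 with a median of 2274, and HFD → RC held 2330, 2346, 1952, 2476 and 2496. The log2 fold change from RC NoDS to HFD NoDS was −0.19 ± 0.0794 (SE), with an adjusted p of 0.657.

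RC → HFD against HFD → RC sets the opposite switches against each other. edgeR called 0 of the 80, beside 0.00783% of all genes tested, with a lowest adjusted p of 0.823, and DESeq2 and limma-voom called 0. Members at an unadjusted p under 0.05 numbered 4, all higher in HFD → RC, beside 5.35% of all genes, with 5 by DESeq2 and 4 by limma-voom, so this share is near that of all genes. Counts of 0 of the 80 did not overlap, beside 0.486% of all genes. The median log2 fold change was 0.058, with 72 of 80 above 0. This median ran from 0.031 to 0.084 with 1 library left out and from 0.036 to 0.06 under other settings. *rpl31* (ENSMUSG00000073702, chr1:39424696-39428753, plus strand) codes for a protein at the exit of the tunnel. Its counts ran from 2026 to 2415 with a median of 2261.5 in RC → HFD and were 2761, 2399, 2384, 2568 and 2743 in HFD → RC. RC → HFD replicate 9, its highest, lay above 2 libraries of HFD → RC, and the other 5 were below that group. RC NoDS held 2702, 2654, 2400, 2494 and 2403 and HFD NoDS 2161, 2547, 2230, 2519 and 2443. The log2 fold change was 0.19 ± 0.0641 (SE), with an adjusted p of 0.823.

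*rps27* (ENSMUSG00000090733, chr3:90016593-90017573, minus strand) codes for a zinc finger protein of the small subunit. Its counts ran from 4483 to 4956 with a median of 4814 in RC → HFD, and HFD → RC had 5174, 5914, 4905, 5000 and 6083. RC NoDS had 5821, 5070, 4812, 6295 and 6073 and HFD NoDS 4681, 5402, 5734, 5880 and 5628. The RC → HFD libraries lay at or below 4956 reads, and each other group had at least 1 library in that range. Its log2 fold change from RC → HFD to HFD → RC was 0.18 ± 0.0738 (SE), with an adjusted p of 0.899. *rpl37a* (ENSMUSG00000046330, chr1:72757834-72760383, plus strand), a zinc finger protein gene of the large subunit, ran from 2758 to 3479 with a median of 2890 in RC → HFD and had 3544, 4181, 2936, 3169 and 3252 in HFD → RC. Its HFD → RC replicate 14 was its highest library of all, and its RC → HFD replicate 11 was high for its group. RC NoDS had 3531, 3057, 3142, 3411 and 3570 and HFD NoDS 3098, 3756, 2752, 3435 and 3139. The log2 fold change was 0.19 ± 0.0872 (SE), with an adjusted p of 0.899, and it ran from 0.11, without HFD → RC replicate 14, to 0.24 with 1 library left out.

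HFD → RC against HFD NoDS asks what a return to chow did in mice kept on high-fat diet until then. edgeR called 0 of the 80, beside 0.0705% of all genes tested, with a lowest adjusted p of 0.594, and DESeq2 and limma-voom called 0. At an unadjusted p under 0.05 there were 2, both higher in HFD NoDS, beside 7.93% of all genes, and 2 by each other tool. *rpl7a* was the 1 gene whose counts did not overlap, beside 1.02% of all genes. Its log2 fold change was 0.14 ± 0.0634 (SE), higher in 5 of 5 libraries, with an adjusted p of 0.594. The median over the 80 was 0.021, with 53 above 0, and it was −0.005 without HFD → RC replicate 15. *rps2* (ENSMUSG00000044533, chr17:24855061-24858874, plus strand) codes for a protein at the path by which the mRNA enters the small subunit. It had 4677, 5450, 4825, 4250 and 4909 reads in HFD → RC and 5002, 6148, 5011, 5490 and 5337 in HFD NoDS. HFD → RC replicate 14 lay among the HFD NoDS libraries, and its other 4 lay below them. RC NoDS held 5284, 4742, 5115, 5458 and 5611, and RC → HFD ran from 4597 to 5109 with a median of 4832. The log2 fold change was 0.16 ± 0.0702 (SE), with an adjusted p of 0.602, and it ran from 0.10, without HFD NoDS replicate 20, to 0.21, without HFD → RC replicate 14.

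The same fit gave contrasts over all 4 groups, which use the same libraries again. For current diet, the mean of the groups on high-fat diet at collection less that of the groups on chow, edgeR called 0 of the 80, beside 0.047% of all genes tested. Before adjustment, at p under 0.05, there were 9, all lower, beside 5.22% of all genes, with 12 by DESeq2 and 7 by limma-voom, both of which called 0. The median was −0.046. For earlier diet, edgeR, DESeq2 and limma-voom called 0, with 3 at an unadjusted p under 0.05 by each, beside 0.0705% and 7.27% of all genes by edgeR. Its median of 0.022 became −0.002 with the share of zero counts in the model, so its sign depended on that choice. For the interaction, the difference between the effect of current diet in mice with earlier high-fat diet and that in mice with earlier chow, edgeR called 0, beside 0.0313% of all genes, and limma-voom called 0. Members at an unadjusted p under 0.05 numbered 11, all above 0, beside 8.84% of all genes, with 15 by DESeq2 and 11 by limma-voom. The median was 0.139, with 75 of 80 above 0, beside −0.004 over all genes. DESeq2 called *rpl30* in the interaction with a log2 value of 0.32 and an adjusted p of 0.129, beside 0.909% of genes, and edgeR gave it 0.32 with an adjusted p of 0.254. Without HFD NoDS replicate 19 edgeR gave 0.36 with an adjusted p of 0.138, past the threshold. In the test of any difference among the 4 groups edgeR and limma-voom called 0 of the 80, beside 0.149% of all genes by edgeR, and DESeq2 called *rpl30* with an adjusted p of 0.129, beside 1.04% of genes. There were 10 at an unadjusted p under 0.05 by edgeR, beside 7.97% of all genes, with 15 by DESeq2 and 11 by limma-voom.

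**Figure D3:**
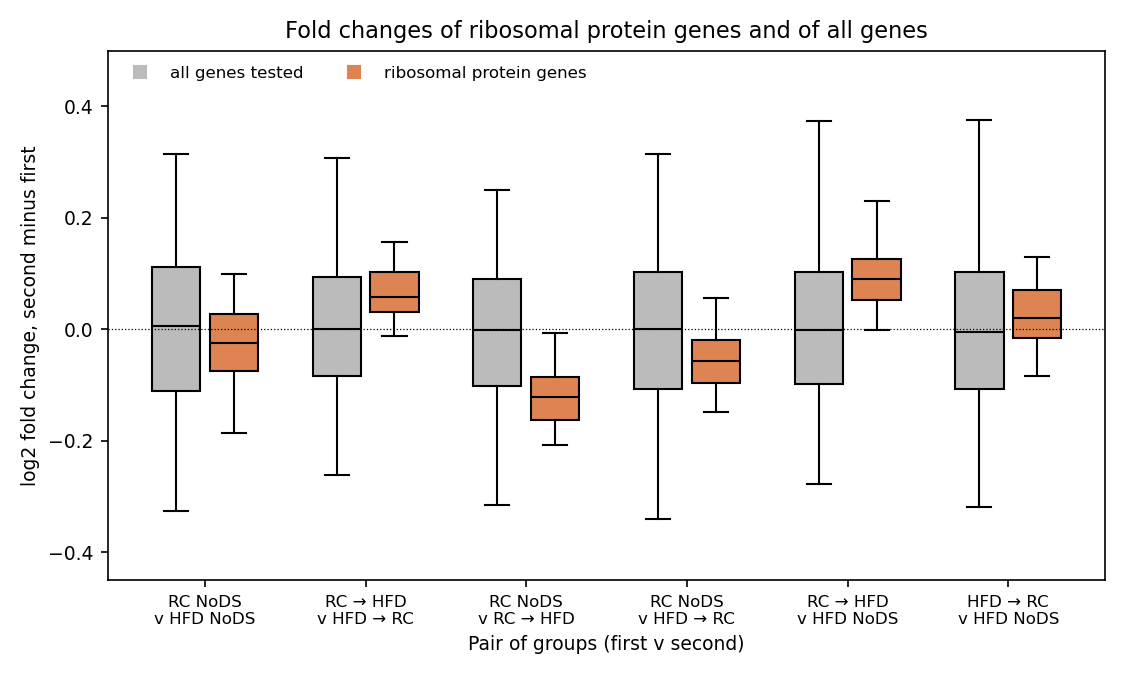
Log2 fold change (second group less first, from edgeR) of the 80 cytosolic ribosomal protein genes and of all 12768 genes tested in the 6 pairs of diet groups; boxes span the quartiles, the line is the median and whiskers run from the 5th to the 95th percentile. The ribosomal protein genes' median is −0.121 from RC NoDS to RC → HFD and 0.091 from RC → HFD to HFD NoDS, and between −0.057 and 0.058 in the other 4 pairs, with all medians of all genes between −0.005 and 0.006.

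The stalk of the large subunit, which recruits elongation factors, is built on *rplp0* (ENSMUSG00000067274, chr5:116009476-116013736, plus strand) with *rplp1* and *rplp2*. *rplp0* is also used as a reference gene for RT-qPCR in the study, as is *actb*, so its mean counts were compared by exact 2-sided permutation tests, with p adjusted over 12 tests of both genes in 6 pairs. Its counts were 4165, 4003, 3815, 4363 and 4390 in RC NoDS, ran from 3588 to 4178 with a median of 3712.5 in RC → HFD, and were 4014, 4373, 3632, 3832 and 4662 in HFD → RC and 3990, 4312, 4160, 4633 and 4527 in HFD NoDS. Of the RC → HFD libraries 5 lay at or below 3797, under all of RC NoDS and HFD NoDS, and replicate 11, at 4178, made the group overlap both. The mean was 561 reads lower in RC → HFD than in HFD NoDS, 3764 ± 218 against 4324 ± 262 (SD), with an exact permutation p of 0.00866 and 0.104 after adjustment. The mean of RC NoDS was 4147 ± 243, from which RC → HFD differed by −384 reads, with an exact p of 0.0303 and 0.182 after adjustment. Neither passed 0.05 after adjustment, and without RC → HFD replicate 11 both did, with differences of 644 and −466 reads and an adjusted p of 0.0476 each. The smallest p these tests can reach is 0.00433 for 5 against 6 libraries and 0.00794 for 5 against 5. The mean counts of *actb* were 11231 ± 482 in RC NoDS, 11177 ± 455 in RC → HFD, 11489 ± 1150 in HFD → RC and 11390 ± 1940 in HFD NoDS (SD). The exact p for *actb* was 0.632 or more in each of the 6 pairs, 0.913 after adjustment. For its RT-qPCR the paper reports that cycle thresholds of the reference genes, *rplp0* and *actb* included, did not differ between diets. As a ratio of means, *rplp0* in RC → HFD stood at 90.8% of RC NoDS. In edgeR its log2 fold change from RC → HFD to HFD NoDS was 0.19 ± 0.0652 (SE), with an adjusted p of 0.51.

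*rplp1* (ENSMUSG00000007892, chr9:61761091-61762345, minus strand) had 9749, 7861, 8966, 8730 and 10239 reads in RC NoDS, from 7876 to 9493 with a median of 8754.5 in RC → HFD, 9781, 9414, 9121, 7937 and 10182 in HFD → RC and 8688, 10406, 9008, 10027 and 9215 in HFD NoDS. All groups overlapped over most of their range, and its adjusted p from RC NoDS to RC → HFD was 0.957. *rplp2* (ENSMUSG00000025508, chr7:148633269-148637484, plus strand) had 5133, 3912, 4860, 4843 and 6049 reads in RC NoDS, from 4155 to 4748 with a median of 4368 in RC → HFD, 4322, 5175, 4090, 4102 and 4373 in HFD → RC and 4440, 5015, 4133, 5363 and 4950 in HFD NoDS. RC NoDS replicate 6 was its highest and replicate 2 of the same group its lowest library of all. Its adjusted p from RC NoDS to RC → HFD was 0.836, with a log2 fold change of −0.14 ± 0.085 (SE). *rpsa* (ENSMUSG00000032518, chr9:120036884-120041487, plus strand), a small subunit gene whose product was also described as a laminin receptor, had 8378, 7440, 7695, 8511 and 8395 reads in RC NoDS, from 7551 to 8704 with a median of 7936.5 in RC → HFD, 8054, 8391, 8627, 7496 and 8489 in HFD → RC and 7597, 8147, 8135, 8668 and 8732 in HFD NoDS. All groups of *rpsa* overlapped, and from RC NoDS to RC → HFD its log2 fold change was 0.02 ± 0.0571 (SE), with an adjusted p of 0.985. It was thus 1 of the 3 members above 0 in that comparison.

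Among ribosomal proteins with other symbols, *fau* and *gnb2l1* (now Rack1) were read as well. From RC NoDS to RC → HFD their log2 fold changes were −0.14 ± 0.0971 (SE) and −0.12 ± 0.0535 (SE), with adjusted p of 0.879 and 0.701. DESeq2 called *gnb2l1* there, with an adjusted p of 0.145, beside 10.8% of the 886 genes that its automatic filter left with an adjusted p. limma-voom called neither. *gnb2l1* had 5364, 4821, 5055, 5053 and 5404 reads in RC NoDS and from 4366 to 4938 with a median of 4618.5 in RC → HFD, with replicate 11 of RC → HFD above replicate 2 of RC NoDS. A list of 10 genes, elongation factors and *tpt1*, had r = 0.84 and rho = 0.80 with the family's share of counts over the 21 libraries, r = 0.77 without the 2 libraries farthest from the median and 0.74 with group means removed. *eef1a1*, which brings charged tRNAs to the ribosome, had a log2 fold change of −0.16 ± 0.0518 (SE) from RC NoDS with an adjusted p of 0.653, and *tpt1* had −0.27 ± 0.079 (SE) with an adjusted p of 0.555. *tpt1* had 6317, 5143, 4831, 5204 and 5675 reads in RC NoDS and from 4147 to 4638 with a median of 4475.5 in RC → HFD, so these groups did not overlap.

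Lists of genes that make, control or resemble the cytosolic ribosome were read from the same fit. edgeR and limma-voom called 0 genes of each of the 6 lists in all 10 comparisons. From RC NoDS to RC → HFD the median log2 fold change was −0.067 for the 10 genes of elongation factors and *tpt1* and −0.065 for 36 initiation factors, with 3 and 2 genes at an unadjusted edgeR p under 0.05, beside 6.51% of all genes, and 2 and 1 called by DESeq2, of the 7 and 10 to which it gave an adjusted p, beside 10.8%. It was 0.064 for 15 genes of mTOR control, −0.03 for 30 of ribosome biogenesis, −0.006 for 74 mitochondrial ribosomal proteins and −0.006 for 73 nuclear subunits of oxidative phosphorylation, with 2, 0, 1 and 0 genes at that p. DESeq2 gave an adjusted p to 0, 1, 0 and 8 genes of these, so its calls are not given for them. In the other comparisons DESeq2 called 1 gene of these lists, of ribosome biogenesis, from RC NoDS to HFD → RC. Of mTOR control the smallest p across all 4 groups were those of *deptor*, which codes for an inhibitor of mTOR, with an adjusted p of 0.734, and *eif4ebp2*, a translation repressor, with 0.654. Those of the other lists were *eif3e* and *eif3m* of the initiation factors, *emg1* and *wdr12* of ribosome biogenesis, *mrps18c* and *mrps9* of the mitochondrial ribosome, and *cox4i1* and *cox6b1* of oxidative phosphorylation, with adjusted p from 0.468 to 0.658.

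The punches carried the markers their label calls for: of 7 ventral hypothalamus genes 6 averaged at least 50 reads, with *pomc* highest at 8304 reads, and no gene of the 11 marker lists had a mean of 0. Choroid plexus markers were low, with 1 of 5 over 50 reads and *kl* highest at 289, and 4 of 5 pituitary markers passed 50 reads, with *cga* highest at 258. Of the lateral hypothalamus, for which the paper says the punches were not enriched, 2 of 2 markers passed 50 reads, with *pmch* highest at 1079. The summed reads of cell type markers differed between libraries, and some lists moved with the ribosomal protein genes. Summed red blood cell markers, 5 of 5 over 50 reads and led by *hbb-b1* with a mean of 1437 reads, stood at 212, 277, 263, 227 and 204 CPM (counts scaled to library size) in RC NoDS and from 64.5 to 129 with a median of 114 in RC → HFD, without overlap. They stood at 413, 144, 163, 41.2 and 216 in HFD → RC and 96.3, 265, 94.6, 194 and 125 in HFD NoDS. All 5 of these markers had an unadjusted edgeR p under 0.05 from RC NoDS to RC → HFD, at a median of −1.178 (log2), and 0 were called by edgeR or limma-voom; DESeq2 gave an adjusted p to 0 of the 5 there. Over the 21 libraries their sum had r = 0.41 and rho = 0.50 with the ribosomal protein share of counts, r = 0.57 without the 2 farthest libraries, and 0.15 with group means removed. Neuron markers, 5 of 5 over 50 reads and led by *snap25* with 10074, moved the opposite way, with r = −0.66, rho = −0.59, r = −0.65 without the 2 farthest and −0.58 with group means removed. Their sum was 2050, 2080, 2050, 1870 and 1820 CPM in RC NoDS, from 2011 to 2333 with a median of 2090 in RC → HFD, 2220, 1940, 2340, 2160 and 2070 in HFD → RC and 2090, 2140, 2060, 1870 and 2060 in HFD NoDS. Of the libraries with a low ribosomal protein share, RC → HFD replicate 8 and HFD → RC replicate 15 were high in neuron markers, with 2230 and 2340 CPM. RC → HFD replicates 9 and 10 were not, with 2040 and 2060, and RC → HFD replicate 12, with the highest share of its group, had 2330. The 5 neuron markers had a median log2 fold change of 0.128 from RC NoDS to RC → HFD, with 3 at an unadjusted p under 0.05 and 0 called by edgeR, by limma-voom, or by DESeq2 among the 4 to which it gave an adjusted p. The part of either cell type in the ribosomal protein values was not tested.

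Ependyma and tanycyte markers, 5 of 5 over 50 reads and led by *col23a1* with 3873, had a sum that moved with the ribosomal protein share, with r = 0.67, rho = 0.59, r = 0.53 without the 2 farthest libraries and 0.56 with group means removed. Their sum was 391, 348, 322, 446 and 480 CPM in RC NoDS, from 267 to 418 with a median of 312 in RC → HFD, 294, 398, 277, 314 and 375 in HFD → RC and 421, 379, 417, 451 and 397 in HFD NoDS. All groups overlapped, with most libraries of RC → HFD and HFD → RC below those of HFD NoDS. edgeR and limma-voom called 0 of these 5 markers in any comparison, with 3 at an unadjusted edgeR p under 0.05 from RC NoDS to RC → HFD, and DESeq2 called 2 in the interaction, 1 from RC → HFD to HFD NoDS and 1 across all 4 groups. The sum rests mostly on *col23a1*, and the markers went both ways from RC NoDS to RC → HFD: *col23a1* with −0.39 ± 0.148 (SE), *crym* with −0.52 ± 0.175 (SE) and *rax* with −0.55 ± 0.266 (SE) were lower, and *foxj1* with 0.21 ± 0.171 (SE) and *ccdc153* with 0.44 ± 0.327 (SE) were higher on the log2 scale, with an adjusted p of 0.673 or more. Their part in the ribosomal protein values was not tested. The other 8 marker lists, of astrocytes, oligodendrocytes, microglia, endothelial cells, choroid plexus, pituitary, ventral and lateral hypothalamus, had r between −0.38 and 0.46, rho between −0.35 and 0.48, and r between −0.25 and 0.37 without the 2 farthest libraries. With group means removed their r ran from −0.22 for lateral to 0.63 for ventral hypothalamus. Of their genes edgeR called *mbp* and *mobp* of oligodendrocytes higher in HFD → RC than in RC NoDS, *gfap* of astrocytes higher with earlier high-fat diet, *hcrt* of lateral hypothalamus higher in HFD NoDS than in RC NoDS, and *agrp*, *npy*, *trh* and *cartpt* of ventral hypothalamus in 1 or more comparisons. From RC NoDS to RC → HFD *npy* fell by 1.31 and *agrp* by 1.24 on the log2 scale, with adjusted p of 2.36e-05 and 0.00154, so the same fit found larger differences of other genes in these libraries. Both lateral hypothalamus markers were higher in RC → HFD there, at a median of 1.181 (log2) and an unadjusted edgeR p under 0.05. Neither was called by edgeR or limma-voom, and DESeq2 gave neither an adjusted p. Their sum averaged 53 CPM in RC NoDS and 101 in RC → HFD, and the groups overlapped. The part of these markers in the ribosomal protein values was not tested. In microglia, endothelial cells, choroid plexus and pituitary edgeR and limma-voom called 0 markers in all comparisons, as did DESeq2 among those to which it gave an adjusted p, none of them from RC NoDS to RC → HFD, and at an unadjusted edgeR p under 0.05 there were at most 2, 2, 0 and 3 in a comparison.

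How complex a library was can be read from its dropouts, here the percent of genes with a mean of 5 to 50 reads that were missing from it. It averaged 3.22% ± 2.42 in RC NoDS, 11.9% ± 8.82 in RC → HFD, 16.5% ± 10.3 in HFD → RC and 16.3% ± 9.93 in HFD NoDS (SD). The mean was lowest in RC NoDS, but groups overlapped: RC → HFD replicates 8 and 7, at 2.31% and 3.4%, lay below RC NoDS replicates 2 and 5, at 3.63% and 7.22%. With the ribosomal protein share of counts it had r = −0.02, rho = −0.05 and r = −0.20 without the 2 farthest libraries, and 0.22 with group means removed (n = 21).

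Since the family's mRNAs moved together, their start sites were read for shared sequence. RefSeq promoters of the GRCm38.p6 assembly, with 250 bases before and 50 after each annotated start, were held for 59 of the 80 genes. All 70 promoter sequences of the 59 genes matched exactly 1 place on their annotated chromosome in mm9 (NCBIM37), from which the positions are given. The other chromosomes were not searched. In the 30 bases around the start, 15 on each side, a run of 8 or more pyrimidines was found at 1 or more of the starts for 27 of 59 genes (45.8%), against 13.9% of the 27025 genes in the table. The longest run had a median of 7 bases in the family and 5 over all genes. Over the whole promoter and both strands, CCGGAAG, a core that ETS factors can bind, was found for 23 of 59 (39.0%), against 9.93% of all genes. AAGATGGC, which YY1 can bind, was found for 6 (10.2%), against 3.19%, and TATAAA for 7 (11.9%), against 15.7%. These are matches of letters and say nothing of binding in these samples.

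Start windows are shown for 6 genes with a long pyrimidine run, chosen among those with the smallest p or without overlap in a pair of groups. Each is the strand of the gene from 5′ to 3′, with the start at base 16 and the longest run in capitals: *rpl7a* at chr2:26766312-26766341 (plus strand), *rpl15* at chr14:19103486-19103515 (minus strand), *rpl35a* at chr16:33056553-33056582 (plus strand), *rpl38* at chr11:114529879-114529908 (plus strand), *rpl31* at chr1:39424681-39424710 (plus strand) and *rps27* at chr3:90017556-90017585 (minus strand).
rpl7a: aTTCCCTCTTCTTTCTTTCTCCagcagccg
rpl15: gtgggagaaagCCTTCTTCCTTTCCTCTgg
rpl35a: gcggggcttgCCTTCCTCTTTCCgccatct
rpl38: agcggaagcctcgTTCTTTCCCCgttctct
rpl31: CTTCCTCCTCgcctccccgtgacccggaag
rps27: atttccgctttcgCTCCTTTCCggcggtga
Of the 3 RefSeq starts of *rpl35a* the window with the longest run is shown, and the longest runs at the others were 4 and 5 bases. The run of *rpl7a* spans 21 bases and that of *rpl15* 17. For contrast, the windows of *rplp0* at chr5:116009461-116009490 (plus strand), *rpl10* at chrX:71516140-71516169 (plus strand) and *rpsa* at chr9:120036869-120036898 (plus strand) held no run of 8 pyrimidines at the RefSeq start.
rplp0: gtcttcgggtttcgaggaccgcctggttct
rpl10: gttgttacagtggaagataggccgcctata
rpsa: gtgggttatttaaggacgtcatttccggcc
*rpl15*, with such a run, and *rpl10*, without, both had lower mean counts in RC → HFD than in RC NoDS. Whether the run goes with the size of a difference was not tested.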

How the data were processed

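Each library was polyA RNA of punches pooled from 2 mice. The deposited counts are whole reads per gene: per the submitters' processing notes the authors merged runs with Picard 2.7.1 and aligned reads to mm9 with STAR 2.5.1b, and then used PORT to leave out ribosomal RNA and mitochondrial reads and to draw the same depth from each library. The totals lay between 16380781 and 16390598. All 21 libraries were used in 4 groups. Genes averaging at least 50 reads were fitted in edgeR 4.0.16 (TMM, quasi-likelihood F-test, 4 group means) under R 4.3.3, with p adjusted by Benjamini-Hochberg over the 12768 genes and a threshold of 0.15. DESeq2 1.42.0 and limma-voom (limma 3.58.1) were run on the same genes. The other alternatives were genes averaging at least 5 reads, no filter, library size without TMM, no scaling, only the 2 groups compared, reads summed by symbol, the share of zero counts as a covariate, a trend on coding length removed, and each library left out in turn. Chosen after seeing the data were a trend on transcript length, *rps4y2* counted as a member, and DESeq2 without its independent filter. Mean counts of *rplp0* and *actb* were compared by exact 2-sided permutation tests with SciPy 1.17.1 under Python 3.11.15. Calls were also tested on simulated data.

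The members and lists were chosen with earlier results of these data known. Named are the stalk genes and *rpsa*, the 3 members with the smallest unadjusted edgeR p in each pair of groups, the 5 highest and 5 lowest per coding length, paralogs and the genes they are named after, members under the minimum, the 5 other genes most like the family, the 2 most and 2 least variable members, up to 3 members per pair whose groups do not overlap, *actb*, *fau*, *gnb2l1*, and of each list the genes called or the 2 with the smallest p across all 4 groups. Some genes that these rules picked are not reported here. The lists were elongation factors with *tpt1*, initiation factors, mTOR control of translation, ribosome biogenesis, mitochondrial ribosomal proteins, nuclear subunits of oxidative phosphorylation, and markers of neurons, astrocytes, oligodendrocytes, microglia, endothelial cells, red blood cells, choroid plexus, pituitary, ventral hypothalamus, lateral hypothalamus, and ependyma and tanycytes. Coding lengths came from GENCODE M1, as those of the protein-coding transcript with the lowest name number. Correlations used log2 counts scaled with TMM, and those of genes had group means removed.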

Additional observations from a re-analysis of the deposited data

Results flagged for a closer look

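By Dixon's test at the 95% level, 1 library lay far from the others of its group of 5 or 6 for each of the genes below. *rpl35a* had 2168 reads in RC NoDS replicate 5, the lowest of its group. *rplp0* had 4178 reads in RC → HFD replicate 11, the highest of its group. *rpl7a* had 4227 reads in HFD → RC replicate 16, the lowest of its group. *actb* had 10399 reads in RC NoDS replicate 2, the lowest of its group. Marked too were *rplp2* with 5175 reads in HFD → RC replicate 14, *rps29* with 8472 in RC → HFD replicate 12 and *rpl36a* with 2367 in HFD NoDS replicate 23, each the highest of its group. Chance flags about 1 in 20 groups, and over the 80 ribosomal protein genes in 4 groups 14 of 320 (4.38%) were so marked, with at most 3 in 1 library, HFD → RC replicate 14.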

How the results depend on the processing

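Of 659 results recomputed under 18 other settings 642 were kept, and of 1344 with 1 library left out 1326 were. A median counted as kept if it moved by less than 0.0719, the spread between libraries. Medians near 0 could thus change sign and still count as kept, as some above did. In the main fit edgeR called 0 members and no test of *rplp0* or *actb* passed, so there was no call to reverse or weaken. With DESeq2 the number of ribosomal protein genes called was 10 from RC NoDS to RC → HFD, 1 from RC NoDS to HFD → RC, 1 in the interaction and 1 across all 4 groups. Without its independent filter DESeq2 called 0 in the first of these and 1 in each of the others. With 1 library left out, edgeR called 0 to 1 from RC NoDS to HFD → RC and 0 to 1 in the interaction. From RC NoDS to RC → HFD the difference in mean *rplp0* counts ran from −384 to −311 under other settings and from −467 to −323 with 1 library left out. From RC → HFD to HFD NoDS it ran from 538 to 561 and from 484 to 644. From RC NoDS to RC → HFD the family's median log2 fold change ran from −0.148 to −0.089 under other settings and from −0.151 to −0.091 with 1 library left out. All medians moved by less than the spread between libraries, 0.0719. Of 23 single-gene results 22 kept 1 sign under every setting, but with the share of zero counts in the model *rpl39* went from −0.31 to −0.09 from RC NoDS to HFD → RC; that of *rplp0* from RC NoDS to HFD → RC ran from −0.07 to 0.04. The median r between members ran from 0.33 to 0.42. No paired analysis was possible because replicate numbers are not shared between groups. The 2 members under the minimum had too few reads to compare diets; whether depth or the number of libraries limits the precision of the others was not tested.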
